A study of Mus musculus with 9 samples.

Results

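Neutrophils circulating in the blood of wild-type C57BL/6 mice were compared with neutrophils of the bone marrow, the tissue in which they are made. The comparison covers 6 of the 9 libraries of the series: 3 of peripheral blood and 3 of bone marrow, with no treatment, chosen by the tissue in their labels. Another 3 libraries, of lung neutrophils, are in the same fit, where they enter the filter on low counts, the scaling factors and the estimate of the spread. Cells were sorted on a flow cytometer, and polyadenylated RNA was sequenced. The sort markers, the age and sex of the mice, and whether both tissues of an animal were taken are not stated in the labels. The design calls the libraries biological replicates.

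Neutrophils fill with granules as they mature in the marrow: azurophil granules with myeloperoxidase and serine proteases come first, then specific granules with lactoferrin and other antimicrobial proteins, then gelatinase granules and secretory vesicles. Each set of cargo is transcribed at its own stage, and mature cells carry the proteins long after the transcripts have fallen. Release into blood is held back by CXCR4 and favoured by CXCR2 and by granulocyte colony-stimulating factor, which acts through the receptor encoded by Csf3r. In blood the cells live for a short time, roll and adhere through selectins and integrins, and respond to microbial products through pattern receptors.

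Each library held 42045548 to 56796219 counts. Levels are in CPM, counts scaled to a common library size with TMM factors, and are not adjusted for gene length. A log2 fold change is blood minus marrow, with its SE. The level of neutrophil markers was read first. The 22 genes took 11.4%, 11.9% and 13.3% of all counts in marrow and 4.44%, 4.38% and 5.21% in blood. Of them 15 were lower in blood and 1 higher in the gene test below (median log2 fold change -1.39). None was at or under 3 counts in every library. That also held for most lists of other cells, so it does not test the neutrophil label. The marker list includes S100a8, S100a9 and granule genes described below, so its fall is not separate from theirs. Of the -7.53 percentage points between blood and marrow, S100a8 and S100a9 made up -3.84. Replicate 3 of both tissues stood apart from the others: on the second principal component, which held 26.5% of the variance, they lay at -67.5 and -66.2 and the other 4 libraries between 18.9 and 48.3. These libraries held fewer red cell, lymphoid and progenitor transcripts, as given below. The first component, with 49.4% of the variance, separated the tissues.

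Upstream sequences of 7 genes are shown because they belong to specific granule genes and interferon-stimulated genes, the lists with the lowest and the highest median among the 24 that are not cell type markers. They are the 250 bases before the RefSeq gene start, on build GRCm38.p6, read 5' to 3' on the gene's strand. Capitals mark matches to TTNNGCAA, a short form of the site bound by C/EBP factors, in the first 4 genes (encoding neutrophilic granule protein, lactoferrin, lipocalin 2 and collagenase), and to TTTC, any 2 bases and TTTC again, a short form of the interferon-stimulated response element, in the last 3 (a GTPase, a schlafen protein and a guanylate-binding protein). Both strands were searched, so the second motif also appears as GAAA, any 2 bases and GAAA. Each of the 7 sequences shown holds a match, which most members of either list do not, as counted below.
Ngp, chr9:110419558-110419807, + strand: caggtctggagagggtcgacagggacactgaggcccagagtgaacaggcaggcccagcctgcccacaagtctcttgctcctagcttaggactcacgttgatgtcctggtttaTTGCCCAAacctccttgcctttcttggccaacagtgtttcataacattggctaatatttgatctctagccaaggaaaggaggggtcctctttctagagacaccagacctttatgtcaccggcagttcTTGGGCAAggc
Ltf, chr9:111019042-111019291, + strand: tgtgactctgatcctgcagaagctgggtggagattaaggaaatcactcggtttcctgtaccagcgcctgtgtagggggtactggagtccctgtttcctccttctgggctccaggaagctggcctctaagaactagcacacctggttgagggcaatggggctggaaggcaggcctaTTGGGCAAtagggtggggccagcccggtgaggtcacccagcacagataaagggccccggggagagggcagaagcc
Lcn2, chr2:32387740-32387989, - strand: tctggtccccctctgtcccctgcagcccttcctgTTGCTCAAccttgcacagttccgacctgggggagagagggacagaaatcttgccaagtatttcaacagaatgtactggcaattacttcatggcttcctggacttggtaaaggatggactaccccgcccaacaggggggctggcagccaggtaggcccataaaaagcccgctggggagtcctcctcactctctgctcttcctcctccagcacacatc
Mmp8, chr9:7558179-7558428, + strand: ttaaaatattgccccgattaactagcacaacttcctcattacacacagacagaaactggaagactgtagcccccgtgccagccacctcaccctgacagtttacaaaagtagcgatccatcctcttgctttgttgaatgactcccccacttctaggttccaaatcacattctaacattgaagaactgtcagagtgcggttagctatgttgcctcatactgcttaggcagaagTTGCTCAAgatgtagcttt
Irgm1, chr11:48871421-48871670, - strand: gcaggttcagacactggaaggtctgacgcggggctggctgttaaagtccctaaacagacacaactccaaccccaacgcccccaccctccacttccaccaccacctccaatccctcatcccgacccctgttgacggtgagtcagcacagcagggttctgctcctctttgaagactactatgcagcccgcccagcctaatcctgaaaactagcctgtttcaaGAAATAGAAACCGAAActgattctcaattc
Slfn5, chr11:82951852-82952101, + strand: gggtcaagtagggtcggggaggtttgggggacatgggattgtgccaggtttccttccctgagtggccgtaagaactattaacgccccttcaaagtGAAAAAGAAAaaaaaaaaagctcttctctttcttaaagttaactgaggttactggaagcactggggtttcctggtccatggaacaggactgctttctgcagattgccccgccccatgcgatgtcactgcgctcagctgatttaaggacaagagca
Gbp7, chr3:142530086-142530335, + strand: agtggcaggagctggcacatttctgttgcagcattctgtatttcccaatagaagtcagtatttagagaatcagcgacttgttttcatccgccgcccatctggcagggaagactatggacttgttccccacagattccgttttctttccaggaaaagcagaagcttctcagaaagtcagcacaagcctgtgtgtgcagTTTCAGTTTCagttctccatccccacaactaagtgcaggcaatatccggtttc
The 2 matches of Ngp began 138 and 11 bases before the gene start, and that of Ltf 75, of Lcn2 216 and of Mmp8 19 bases before it. The 2 overlapping matches of Irgm1 began 30 and 24 bases before the start, that of Slfn5 155 and that of Gbp7 53. TTNNGCAA lay in the upstream sequence of 6 of the 18 specific granule genes that matched the promoter table, against 9.37% of the 10669 tested genes that matched. The second motif lay in 19 of 41 interferon-stimulated genes, against 3.29% of all: in 8 of the 14 that were higher in blood and 11 of the 25 that did not pass. A match is a description of these letters and no evidence of binding.

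Of 13510 genes tested with edgeR's quasi-likelihood test, 1127 were higher and 1765 lower in blood at an adjusted p under 0.05, or 8.34% and 13.1% of the genes tested (21.4% in all). The median log2 fold change of all genes was -0.05. The balance depended on the scaling: higher genes were 39.0% of calls, but 52.6% with upper-quartile scaling (1695 higher, 1527 lower) and 67.3% with limma on log2(FPKM + 1) (2266 higher, 1100 lower), where the median of all genes was 0.11 and 0.13. Directions below are therefore read against that shift, and the counts called in each list against 8.34% higher and 13.1% lower. Leaving out 1 of the 6 libraries left 592 to 779 higher and 699 to 1382 lower genes, with the fewest higher without bone marrow replicate 2 and the fewest lower without blood replicate 2. Without replicate 3 of both tissues, 381 were higher and 752 lower. A core of 480 higher and 628 lower genes was called in all 9 fits that left out 1 library, and genes below whose call fails in one of these are named as such.

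Transcripts were less concentrated in blood. The 10 genes with the most counts took 11.7%, 12.2% and 13.4% of the marrow libraries and 7.88%, 7.71% and 8.44% of the blood libraries. Calprotectin, the S100a8 and S100a9 pair that makes up much of the neutrophil's cytosolic protein, had the most counts in marrow: it took 4.87%, 5.23% and 5.86% of counts in marrow and 1.35%, 1.42% and 1.66% in blood. The means were 5.32% ± 0.50 and 1.48% ± 0.16 (SD, n = 3 each, exact two-sided permutation p = 0.1, the smallest that 3 against 3 allows). In blood the most counts went to Csf3r, the receptor for granulocyte colony-stimulating factor, at 4394, 4599 and 5388 CPM in marrow and 11617, 11325 and 15905 CPM in blood. The groups do not overlap (log2 fold change 1.43 ± 0.32, adjusted p = 0.013). The call is lost without blood replicate 3, without bone marrow replicate 1 or bone marrow replicate 2, and without replicate 3 of both tissues (adjusted p between 0.0537 and 0.0999).

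The cargo of the specific granules was the gene group that fell most. Of its 22 genes, 20 were lower in blood and none higher, all 22 lay below marrow in every library (25.6% of all genes did, and 19.8% lay above), and their median log2 fold change was -3.28. Together they took 5.17% ± 0.34 of the counts in marrow and 0.80% ± 0.03 in blood (SD, n = 3 each, exact two-sided permutation p = 0.1). Between 18 and 20 passed when any 1 blood or marrow library was left out, and 17 without replicate 3 of both tissues.

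**Figure D1:**
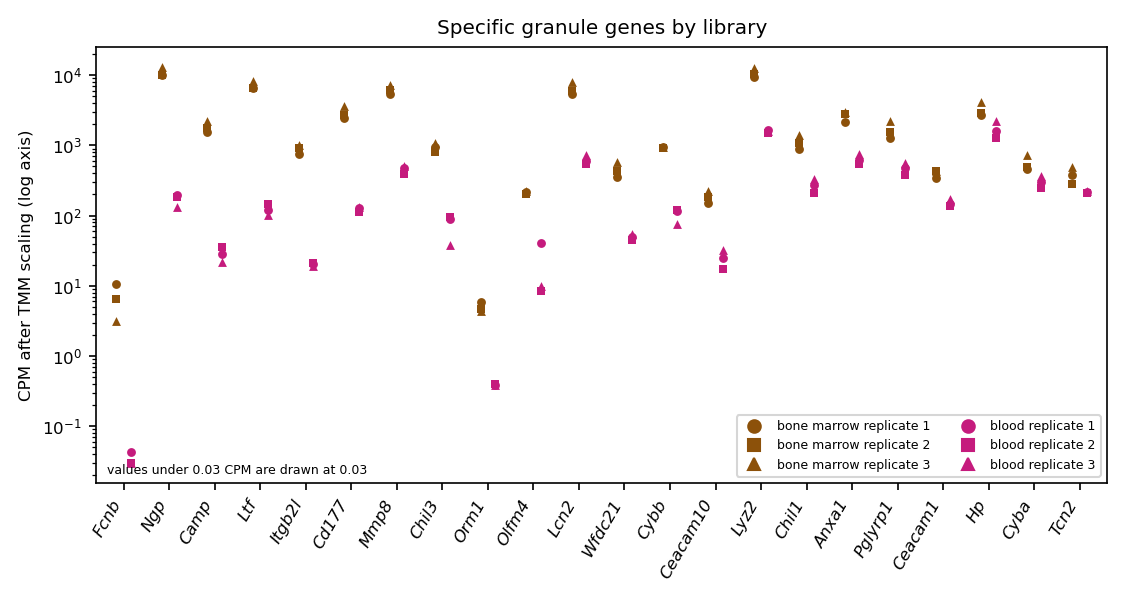
Levels of the 22 specific granule genes in each library, in CPM on a log axis, ordered by log2 fold change; brown symbols are the 3 marrow libraries and magenta the 3 blood libraries. The largest falls are at the left, and Fcnb had 2, 0 and 0 counts in blood, drawn at the foot of the axis.

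Fcnb, which encodes ficolin B, a soluble lectin that binds microbial sugars, was nearly silent in blood, at 10.5, 6.41 and 3.17 CPM in marrow and 0.0436, 0 and 0 CPM in blood. Its counts there are too few for a fold change. Lyz2, the lysozyme that cuts bacterial cell walls, was at 9336, 10252 and 12596 CPM in marrow and 1649, 1510.0 and 1577 CPM in blood (log2 fold change -2.76 ± 0.23, adjusted p = 1.0e-04). Wfdc21, a small secreted protein with a protease inhibitor-type fold, was at 350.0, 432 and 572 CPM in marrow and 49.9, 44.3 and 54.7 CPM in blood (log2 fold change -3.18 ± 0.24, adjusted p = 6.8e-05). At the shallow end, Pglyrp1, a peptidoglycan-binding protein, fell by 1.82 on the log2 scale and Anxa1, the anti-inflammatory annexin, by 2.05. No blood library of these 5 genes reached any marrow library. The 2 members that did not pass were Hp, which encodes haptoglobin (log2 fold change -0.95 ± 0.31, adjusted p = 0.055), and Tcn2, the vitamin B12 carrier (log2 fold change -0.84 ± 0.37, adjusted p = 0.14).

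Olfm4 and Chil3 varied more among blood libraries. Olfm4, a glycoprotein found in a subset of neutrophils, was at 215, 202 and 221 CPM in marrow and 40.5, 8.46 and 9.83 CPM in blood, with blood replicate 1 above the other two (log2 fold change -3.44 ± 0.63, adjusted p = 0.0058). Chil3, a chitinase-like lectin, was at 934, 799.7 and 1082 CPM in marrow and 89.4, 94.5 and 38.1 CPM in blood, lowest in blood replicate 3 (log2 fold change -3.66 ± 0.82, adjusted p = 0.014). Neither call held without replicate 3 of both tissues (adjusted p 0.053 and 0.11).

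Azurophil cargo fell less evenly. Of 19 azurophil genes tested, 10 were lower in blood and none higher (median -0.82), 5 of the 10 in every omission of 1 library. The count fell to 6, 5 and 6 without blood replicate 1, 2 and 3. The protease genes of early granulocytes were graded across the marrow libraries themselves. Ctsg, cathepsin G, was at 12.04, 5.96 and 0.946 CPM in marrow and 0, 0.0869 and 0 CPM in blood, and Ms4a3, a membrane protein of granulocyte progenitors, at 5.58, 2.18 and 0.588 CPM in marrow and 0, 0 and 0 CPM in blood. Prtn3, proteinase 3, was at 28.3, 12.4 and 3.07 CPM in marrow and 1.66, 1.49 and 2.33 CPM in blood. In all 3 genes bone marrow replicate 3 was lowest and replicate 1 highest. Serpinb1a, the cytosolic inhibitor that protects the cell from these proteases, was at 163, 191 and 222 CPM in marrow and 17.7, 15.7 and 9.15 CPM in blood (log2 fold change -3.76 ± 0.41, adjusted p = 3.6e-04). The summed share of azurophil genes was 0.58% ± 0.05 in marrow and 0.49% ± 0.07 in blood (SD, n = 3 each), and the groups overlap. As a share of summed FPKM the difference turned to 0.079 percentage points higher in blood.

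Of 19 gelatinase granule and secretory vesicle genes, 8 were lower and none higher (median -0.85). The count was 4, 3 and 3 without blood replicate 1, 2 and 3, and 5 and 4 without bone marrow replicate 2 and 3. Their share of counts went from 3.54% ± 0.36 to 1.47% ± 0.17 (SD, n = 3 each, exact two-sided permutation p = 0.1). Retnlg, a resistin-like secreted protein of neutrophils, was at 11811, 13505 and 19709 CPM in marrow and 1734, 1075 and 1713 CPM in blood (log2 fold change -3.32 ± 0.36, adjusted p = 3.9e-04). Mmp25, a membrane-bound metalloproteinase of neutrophils, was at 623, 709.8 and 791 CPM in marrow and 109.7, 103 and 149 CPM in blood (log2 fold change -2.55 ± 0.28, adjusted p = 3.6e-04). Both separate the tissues in every library.

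Outside the granule lists, the largest falls among the genes named by their fold change were those of Slc4a1, Tmcc2 and Gpr27. Slc4a1, the anion exchanger of red cells and one of the erythroid markers, was at 181, 196 and 5.45 CPM in marrow and 1.003, 1.30 and 0.0680 CPM in blood (log2 fold change -7.30 ± 1.46, adjusted p = 0.0088). Tmcc2, a transmembrane protein, was at 138, 169 and 7.24 CPM in marrow and 1.70, 1.23 and 0.136 CPM in blood (log2 fold change -6.67 ± 1.30, adjusted p = 0.0077). In both, bone marrow replicate 3 was far below the other marrow libraries, and limma-voom did not call them (adjusted p = 0.31 and 0.21). Gpr27, an orphan G protein-coupled receptor, was at 16.97, 24.3 and 26.03 CPM in marrow and 0.392, 0.226 and 0.136 CPM in blood (log2 fold change -6.47 ± 0.46, adjusted p = 5.5e-05). Acvrl1, a receptor for bone morphogenetic proteins best known in endothelium, was at 249.9, 239.9 and 306 CPM in marrow and 9.18, 9.66 and 5.93 CPM in blood (log2 fold change -5.00 ± 0.36, adjusted p = 5.5e-05). Tinagl1, a secreted cathepsin-like glycoprotein, was at 177, 234 and 261 CPM in marrow and 9.98, 7.005 and 8.38 CPM in blood (log2 fold change -4.73 ± 0.21, adjusted p = 9.9e-06). Pnpla1, a lipid acyltransferase known from skin, was at 34.97, 34.1 and 48.5 CPM in marrow and 1.72, 0.382 and 0.793 CPM in blood (log2 fold change -5.35 ± 0.53, adjusted p = 2.1e-04). Crtac1, an extracellular matrix protein of cartilage, was at 15.7, 24.4 and 30.3 CPM in marrow and 0.894, 0.991 and 1.04 CPM in blood (log2 fold change -4.58 ± 0.37, adjusted p = 9.0e-05). In each of these 7 genes every blood library lay below every marrow library, which the rule that named them required. Thbs1, thrombospondin 1, a matricellular protein that binds CD47 and CD36, was among the genes with the most counts in marrow, at 9027, 8662 and 8849 CPM in marrow and 1867, 1009 and 423 CPM in blood (log2 fold change -3.01 ± 0.54, adjusted p = 0.0050). Its marrow libraries were even, and its blood libraries ran from replicate 1, the highest, to replicate 3, the lowest.

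Of the 15 genes named for the largest rises, 4 are markers of other cells and were lowest in blood replicate 3. Ace, in the list of monocyte and dendritic cell markers, was at 1.22, 0.804 and 3.22 CPM in marrow and 83.9, 59.3 and 13.1 CPM in blood (log2 fold change 4.91 ± 0.93, adjusted p = 0.0069). Ciita, the regulator of MHC class II genes and in the same list, was at 2.17, 1.16 and 1.64 CPM in marrow and 28.7, 34.3 and 4.73 CPM in blood (log2 fold change 3.77 ± 0.86, adjusted p = 0.015). The B-cell markers Fcer2a, the low-affinity IgE receptor, and Cd22, an inhibitory lectin, were at 3.12, 1.55 and 2.02 CPM in marrow and 47.5, 45.5 and 7.79 CPM in blood (log2 fold change 3.91 ± 0.90, adjusted p = 0.016) and at 10.1, 6.15 and 4.91 CPM in marrow and 87.8, 89.3 and 13.998 CPM in blood (log2 fold change 3.17 ± 0.85, adjusted p = 0.029). Limma-voom called none of the 4 (adjusted p = 0.10, 0.22, 0.20 and 0.13), Ciita and Fcer2a were lost without bone marrow replicate 2 or 3, and Cd22 in every omission of 1 blood or marrow library other than blood replicate 3.

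Of the others, Prr5l, a binding partner of the kinase complex mTORC2, was at 22.1, 17.3 and 23.9 CPM in marrow and 197, 166 and 209.5 CPM in blood (log2 fold change 3.18 ± 0.27, adjusted p = 1.0e-04). Abi3, an adaptor of the WAVE actin-nucleation complex, was at 4.27, 3.04 and 4.09 CPM in marrow and 30.5, 35.2 and 31.5 CPM in blood (log2 fold change 3.09 ± 0.22, adjusted p = 5.5e-05). The RSEM counts deposited for the blood libraries gave Abi3 93.0 CPM on average, against 36.8 CPM unscaled in the table. Pou2f2, the octamer-binding factor of B cells and myeloid cells, was at 3.10, 2.27 and 1.66 CPM in marrow and 26.7, 30.4 and 11.2 CPM in blood, lowest in blood replicate 3 (log2 fold change 3.28 ± 0.49, adjusted p = 0.0020). Fgl2, a fibrinogen-like protein with a membrane and a secreted form, was among the more abundant of the genes that rose, at 174, 194 and 230.4 CPM in marrow and 1169, 1269 and 1985 CPM in blood (log2 fold change 2.89 ± 0.44, adjusted p = 0.0021). Lair1, an inhibitory receptor for collagen, was at 5.15, 3.53 and 6.39 CPM in marrow and 38.1, 36.01 and 44.7 CPM in blood (log2 fold change 2.98 ± 0.34, adjusted p = 4.8e-04), and Dusp16, a phosphatase of the kinase JNK, at 7.91, 4.35 and 6.98 CPM in marrow and 53.1, 42.5 and 47.2 CPM in blood (log2 fold change 2.89 ± 0.33, adjusted p = 4.4e-04). Fgl2, Lair1 and Dusp16 lie outside the naming rule and were chosen after their values were seen.

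Of 37 genes of glycolysis, glycogen and the pentose phosphate pathway, 21 were lower and 1 higher (median -0.89), but only 7 of these held in every omission of 1 library. The count was 7 without blood replicate 1 and 7 without blood replicate 2, and 11 without replicate 3 of both tissues. Tkt, transketolase of the pentose phosphate pathway, was at 1405, 1525 and 1892 CPM in marrow and 308, 249 and 320.1 CPM in blood (log2 fold change -2.46 ± 0.21, adjusted p = 1.0e-04). Gbe1 and Gys1, which branch and extend glycogen, fell by 2.02 and 1.70 on the log2 scale. Pgam1, phosphoglycerate mutase, was at 337, 350.2 and 498 CPM in marrow and 109.7, 64.7 and 104 CPM in blood (log2 fold change -2.09 ± 0.29, adjusted p = 0.0014). Gapdh, the glyceraldehyde phosphate dehydrogenase, fell by 1.51 in the table, but the RSEM counts of the blood libraries gave it 1016 CPM on average, against an unscaled marrow mean of 947 CPM in the table. No RSEM count of marrow was used here, so the RSEM counts do not test this fall. The member that rose was Eno3, the muscle-type enolase (log2 fold change 0.72 ± 0.18, adjusted p = 0.020), a call lost without blood replicate 1, without bone marrow replicate 1 or 2, or without replicate 3 of both tissues.

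The phagocyte oxidase makes superoxide from NADPH, which the pentose phosphate pathway supplies. Of 28 oxidase and oxidant-defence genes, 9 were lower and none higher (median -0.69), and 3 held in every omission: Cybb, the catalytic subunit, Prdx5, a peroxiredoxin, at 939, 1064 and 1431 CPM in marrow and 339, 256 and 351 CPM in blood (log2 fold change -1.86 ± 0.26, adjusted p = 0.0016), and Gclm, a subunit of the enzyme that begins glutathione synthesis, at 28.4, 32.3 and 34.6 CPM in marrow and 9.22, 10.5 and 11.01 CPM in blood (log2 fold change -1.63 ± 0.15, adjusted p = 1.8e-04). The count was 4, 4 and 3 without blood replicate 1, 2 and 3, and 5 without bone marrow replicate 3.

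Lipid genes moved in both directions. Of 59, 21 were lower and 8 higher (median -0.58); without blood replicate 2 these were 13 and 5, and without bone marrow replicate 2 the higher ones were 5. The lower ones include genes of lipid storage and sterol synthesis: Plin2, the coat protein of lipid droplets, was at 333, 384 and 489 CPM in marrow and 61.7, 50.3 and 70.1 CPM in blood (log2 fold change -2.73 ± 0.20, adjusted p = 5.7e-05). Dgat1, which makes triglyceride, was at 846, 664 and 1099 CPM in marrow and 197, 155 and 206 CPM in blood (log2 fold change -2.22 ± 0.27, adjusted p = 6.2e-04). Srebf2, a transcription factor of cholesterol synthesis, fell by 1.68. Among the higher ones Abca1, the cholesterol exporter, was at 9.39, 7.53 and 6.09 CPM in marrow and 27.4, 31.96 and 18.1 CPM in blood (log2 fold change 1.75 ± 0.27, adjusted p = 0.0022), and Ppard, a fatty acid-sensing nuclear receptor, at 29.4, 26.2 and 24.9 CPM in marrow and 63.9, 65.02 and 91.4 CPM in blood (log2 fold change 1.45 ± 0.21, adjusted p = 0.0019). In eicosanoid synthesis, Ptges, a prostaglandin E synthase, was at 7.41, 9.25 and 8.57 CPM in marrow and 1.31, 1.41 and 1.59 CPM in blood (log2 fold change -2.55 ± 0.32, adjusted p = 7.5e-04).

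Lysosomal genes moved in both directions, and their balance depended on the scaling. Of 49, 9 were higher and 13 lower (median -0.30), against 16 higher and 8 lower with limma on log2(FPKM + 1). Ctss, the cathepsin that trims the invariant chain of MHC class II, was at 21.6, 22.9 and 26.5 CPM in marrow and 97.9, 114 and 64.8 CPM in blood (log2 fold change 1.97 ± 0.33, adjusted p = 0.0037). Gm2a, the ganglioside activator protein, was at 158, 159 and 194 CPM in marrow and 594, 532 and 743 CPM in blood (log2 fold change 1.87 ± 0.26, adjusted p = 0.0014), and Ctsa, protective protein cathepsin A, at 101, 93.3 and 119 CPM in marrow and 299, 263 and 365 CPM in blood (log2 fold change 1.57 ± 0.20, adjusted p = 7.6e-04). Galns, a sulfatase that degrades keratan sulfate, was at 61.3, 83.8 and 88.7 CPM in marrow and 11.2, 13.2 and 12.9 CPM in blood (log2 fold change -2.65 ± 0.23, adjusted p = 1.3e-04), and Grn, progranulin, fell by 1.57. The lower count was 6, 4 and 4 without blood replicate 1, 2 and 3, and 6 and 4 without bone marrow replicate 2 and 3. Each of these 5 genes passed in every alternative run.

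**Figure D2:**
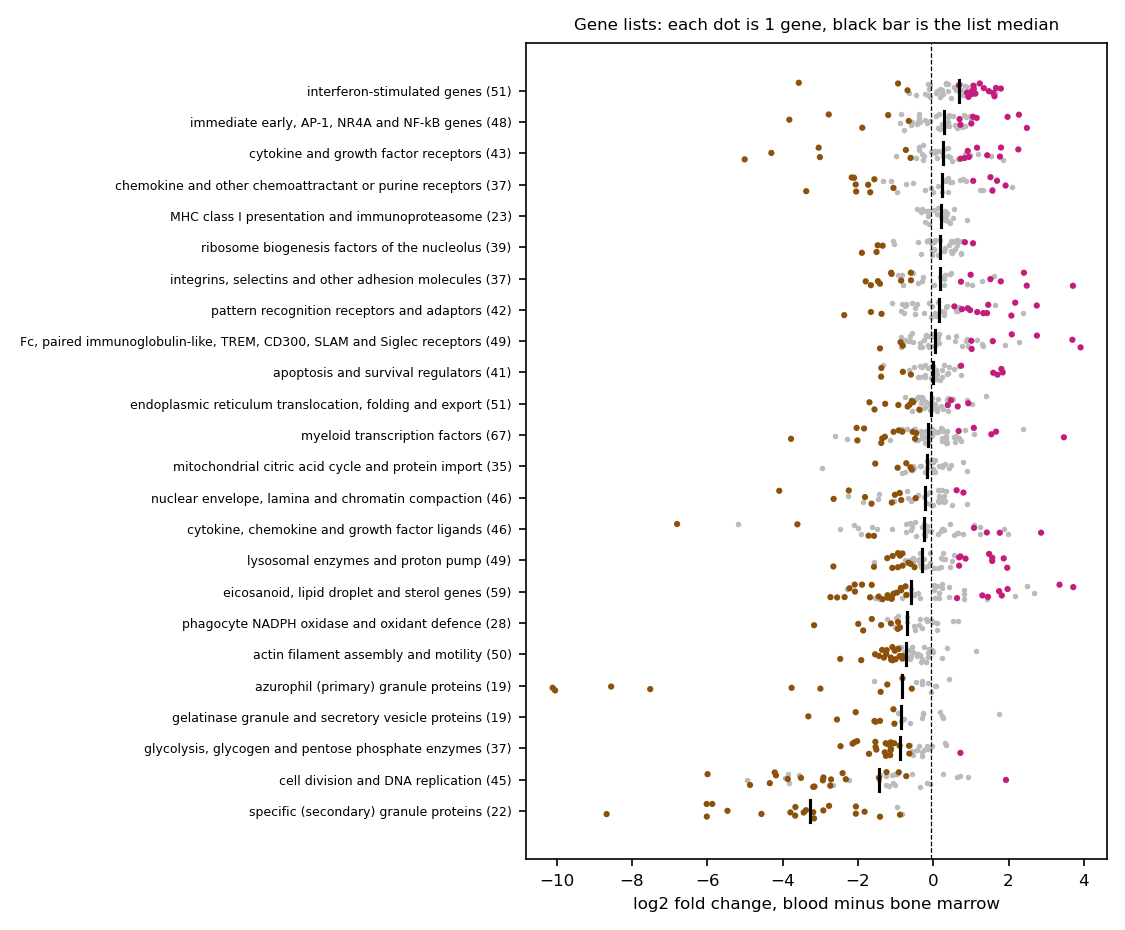
Log2 fold change, blood minus bone marrow, of every tested member of 24 gene lists, with the number of members in brackets. Magenta dots are genes called higher in blood, brown called lower and grey not called; the black bar is the list's median and the dashed line the median of all genes, -0.05. The median of specific granule genes, -3.28, is the lowest of the 24 and that of interferon-stimulated genes, 0.68, the highest.

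Of 50 genes of the actin machinery, 19 were lower and none higher (median -0.73), and 37 lay below marrow in every library. Over all genes 13.1% were lower, and 25.6% lay below marrow in every library. Leaving out blood replicate 1, 2 or 3 left 3, 2 and 5, leaving out bone marrow replicate 1, 2 or 3 left 12, 12 and 9, and size factors from DESeq2 left 11. Limma on log2(FPKM + 1) called 3 higher and 23 lower. The 2 that held throughout were Capg, which caps filament ends, at 301, 389 and 492 CPM in marrow and 76.5, 66.3 and 70.8 CPM in blood (log2 fold change -2.47 ± 0.20, adjusted p = 9.5e-05), and Arhgdib, an inhibitor that holds small GTPases in the cytosol, at 2014, 2214 and 2749 CPM in marrow and 629, 524 and 702 CPM in blood (log2 fold change -1.91 ± 0.26, adjusted p = 0.0012). Actn1, which cross-links filaments, fell by 1.54, a call lost without blood replicate 2 (adjusted p = 0.057).

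Adhesion genes moved in both directions. Of 37 adhesion genes, 7 were higher and 9 lower (median 0.18). Of the higher ones, 6 held in every omission of 1 library. Itga4, the alpha chain of the VLA-4 receptor for VCAM-1, was at 106, 88.3 and 76.5 CPM in marrow and 483, 491 and 539.7 CPM in blood (log2 fold change 2.48 ± 0.26, adjusted p = 3.0e-04). Itgax, which encodes CD11c, was at 44.3, 49.7 and 60.6 CPM in marrow and 211, 261 and 349 CPM in blood (log2 fold change 2.41 ± 0.28, adjusted p = 5.0e-04). Itgb7, a partner of Itga4 in gut homing, was at 81.1, 88.9 and 105 CPM in marrow and 156, 181 and 212 CPM in blood (log2 fold change 0.99 ± 0.18, adjusted p = 0.0053). Icam1, a ligand of the beta 2 integrins, was at 14.9, 9.47 and 8.92 CPM in marrow and 44.7, 33.9 and 37.01 CPM in blood (log2 fold change 1.79 ± 0.31, adjusted p = 0.0041), a call lost without replicate 3 of both tissues (adjusted p = 0.053). Among the lower ones Vcl, vinculin, was at 311, 324 and 337 CPM in marrow and 93.1, 84.6 and 103 CPM in blood (log2 fold change -1.79 ± 0.26, adjusted p = 0.0019), and Parvg, a parvin of the integrin-linked kinase complex, at 306, 356 and 416 CPM in marrow and 129.6, 111 and 148 CPM in blood (log2 fold change -1.47 ± 0.21, adjusted p = 0.0015). The lower count was 4, 2 and 5 without blood replicate 1, 2 and 3, and 14 without lung replicate 3.

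**Figure D3:**
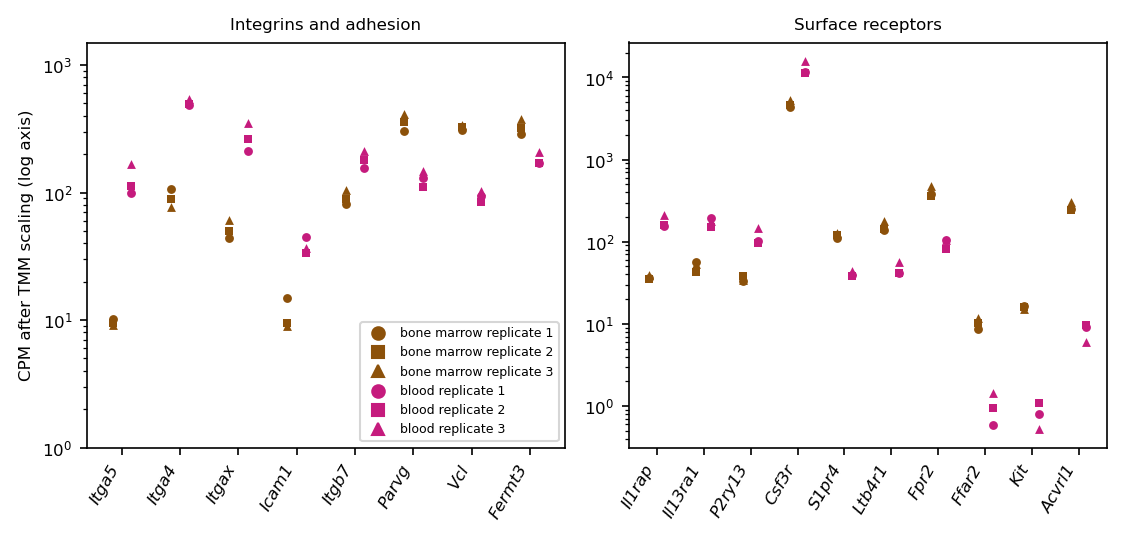
CPM on a log axis of adhesion genes (left) and surface receptors (right) in each library; brown is bone marrow, magenta is blood, and symbols mark replicates. No gene shown has a blood library within the range of its marrow libraries.

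Receptors for chemoattractants and purines moved in both directions. Of 37, 5 were higher and 9 lower (median 0.23), and 7 of the 9 falls were called in every alternative. Ffar2, a receptor for short-chain fatty acids, was at 8.77, 10.2 and 11.6 CPM in marrow and 0.589, 0.939 and 1.43 CPM in blood (log2 fold change -3.37 ± 0.36, adjusted p = 3.3e-04). Fpr2, a formyl peptide receptor, was at 377, 365 and 480.2 CPM in marrow and 105, 82.3 and 106 CPM in blood (log2 fold change -2.06 ± 0.21, adjusted p = 2.8e-04). Ltb4r1, the receptor for leukotriene B4, was at 137, 142 and 180.2 CPM in marrow and 41.3, 41.04 and 56.6 CPM in blood (log2 fold change -1.73 ± 0.22, adjusted p = 7.8e-04). S1pr4, a sphingosine 1-phosphate receptor of leukocytes, was at 110.3, 119.9 and 129 CPM in marrow and 39.9, 37.7 and 44.01 CPM in blood (log2 fold change -1.56 ± 0.27, adjusted p = 0.0042). P2ry13, a receptor for ADP, was at 33.5, 38.2 and 34.5 CPM in marrow and 103, 95.2 and 145 CPM in blood (log2 fold change 1.70 ± 0.30, adjusted p = 0.0050), and P2ry2, a receptor for ATP and UTP, at 28.9, 23.5 and 27.4 CPM in marrow and 91.5, 64.6 and 72.8 CPM in blood (log2 fold change 1.52 ± 0.29, adjusted p = 0.0062). The calls of both were lost without replicate 3 of both tissues, where none of the 5 rises passed. The 5 became 3 without any 1 blood library or bone marrow replicate 1, and 2 when bone marrow replicate 2 was left out. Mrgpra2a and Mrgpra2b also fell, but they are near-identical copies that share reads.

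Of 43 cytokine receptors, 9 were higher and 6 lower (median 0.25). The count higher was 4 without blood replicate 1, blood replicate 2 or bone marrow replicate 1, and 2 when bone marrow replicate 2 or replicate 3 of both tissues was left out. Il1rap, the shared signalling chain of interleukin 1 and interleukin 33 receptors, was at 35.997, 35.1 and 38.9 CPM in marrow and 157, 158 and 212 CPM in blood (log2 fold change 2.26 ± 0.32, adjusted p = 0.0015), and Il13ra1, a receptor chain for interleukins 4 and 13, at 56.98, 42.9 and 53.3 CPM in marrow and 193, 150.2 and 180.0 CPM in blood (log2 fold change 1.77 ± 0.24, adjusted p = 0.0012). These 2 held in every omission. Among the lower ones, Kit, the stem cell factor receptor of progenitors, was at 16.3, 15.96 and 15.3 CPM in marrow and 0.807, 1.08 and 0.521 CPM in blood (log2 fold change -4.30 ± 0.44, adjusted p = 2.7e-04), even across the 3 marrow libraries. Tnfrsf10b, a death receptor for TRAIL, was at 8.94, 6.88 and 11.1 CPM in marrow and 1.53, 0.973 and 0.838 CPM in blood (log2 fold change -3.01 ± 0.33, adjusted p = 4.1e-04).

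Of 46 cytokine ligands, 4 were higher and 4 lower (median -0.24), with 7 lower without blood replicate 1. The 4 are 8.70% in each direction, against 8.34% higher and 13.1% lower over all genes. Csf1, the growth factor of macrophages, was at 129, 98.2 and 156 CPM in marrow and 1247, 678 and 868 CPM in blood (log2 fold change 2.86 ± 0.43, adjusted p = 0.0021). Tgfb1, transforming growth factor beta 1, was at 83.6, 76.1 and 90.8 CPM in marrow and 166, 162 and 203 CPM in blood (log2 fold change 1.08 ± 0.17, adjusted p = 0.0025). Tnfsf13b, which encodes the B-cell survival factor BAFF, was at 57.7, 63.8 and 76.7 CPM in marrow and 19.9, 17.1 and 23.4 CPM in blood (log2 fold change -1.72 ± 0.23, adjusted p = 0.0011), and Cxcl1, a ligand of CXCR2, at 8.25, 11.02 and 19.3 CPM in marrow and 1.83, 1.11 and 0.204 CPM in blood (log2 fold change -3.61 ± 0.64, adjusted p = 0.0051). Some inducible ligands that did not pass differed widely among the blood libraries. Cxcl2 was at 2228, 1766 and 1862 CPM in marrow and 3137, 807 and 235 CPM in blood (adjusted p = 0.70), and Ccl3 at 174, 138 and 143 CPM in marrow and 736, 258 and 90.8 CPM in blood (adjusted p = 0.20). In both, blood replicate 1 was highest and replicate 3 lowest, and the groups overlap. Cxcl2 and Ccl3 were chosen after their values were seen.

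Immediate early genes are switched on within minutes of stimulation and can also be induced by handling. Of 48, 8 were higher and 5 lower (median 0.28), or 16.7% and 10.4%, against 8.34% and 13.1% of all genes. The rises were 5 without blood replicate 1, blood replicate 2, bone marrow replicate 1 or bone marrow replicate 3. The falls were 2 and 3 without blood replicate 2 and 3. Egr1, an early growth response factor, was at 1045, 561 and 873 CPM in marrow and 7151, 2555 and 2302 CPM in blood, highest in blood replicate 1 (log2 fold change 2.28 ± 0.48, adjusted p = 0.010). Socs3, the feedback inhibitor of G-CSF and interleukin 6 signalling, was at 112, 150.3 and 158 CPM in marrow and 678, 650.3 and 1024 CPM in blood, highest in replicate 3 (log2 fold change 2.49 ± 0.26, adjusted p = 2.8e-04). Odc1, the first enzyme of polyamine synthesis, was at 242, 168 and 196 CPM in marrow and 48.1, 28.1 and 12.4 CPM in blood (log2 fold change -2.77 ± 0.48, adjusted p = 0.0044). Fosl1, a partner of Jun, was at 131, 87.5 and 118 CPM in marrow and 19.7, 3.06 and 1.18 CPM in blood (log2 fold change -3.82 ± 0.89, adjusted p = 0.016), a call lost without blood replicate 2 (adjusted p = 0.070) and without replicate 3 of both tissues (0.053). The part of cell handling in these values was not tested.

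Of 67 myeloid transcription factors, 5 were higher and 13 lower (median -0.14), or 7.46% and 19.4%, against 8.34% and 13.1% of all genes. Cebpe, the C/EBP factor required for specific granules, was at 73.5, 87.8 and 92.6 CPM in marrow and 20.8, 16.7 and 25.4 CPM in blood (log2 fold change -2.01 ± 0.25, adjusted p = 7.8e-04). Myb, a factor of dividing progenitors, was at 36.3, 27.7 and 9.38 CPM in marrow and 1.37, 3.39 and 0.566 CPM in blood, low in the third marrow library (log2 fold change -3.77 ± 0.79, adjusted p = 0.011). Klf5 and Lmo4 fell by 1.28 and 1.38. Rara, the retinoic acid receptor alpha, was at 214, 262 and 263 CPM in marrow and 667, 685 and 996 CPM in blood (log2 fold change 1.67 ± 0.22, adjusted p = 9.2e-04), and Zeb2, a zinc finger repressor, at 56.5, 53.6 and 41.2 CPM in marrow and 148, 164 and 129 CPM in blood (log2 fold change 1.54 ± 0.18, adjusted p = 4.9e-04). Cebpg, a C/EBP family member, was at 21.2, 25.6 and 27.1 CPM in marrow and 43.7, 42.8 and 69.7 CPM in blood (log2 fold change 1.08 ± 0.22, adjusted p = 0.0096). Each of these 7 genes was called in every omission of 1 library. The lower count was 6, 6 and 8 without blood replicate 1, 2 and 3, and 8 and 7 without bone marrow replicate 2 and 3. Mafg, a basic leucine zipper factor, fell by 1.83 in the table, but its RSEM level in blood was 137 CPM on average, against an unscaled marrow mean of 117 CPM in the table, and the fall was not tested with RSEM counts.

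Of 51 interferon-stimulated genes, 15 were higher and 3 lower (median 0.68), and 8 rises held in every omission of 1 library. The count higher was 8, 9 and 8 without blood replicate 2, blood replicate 3 and bone marrow replicate 1, 5 without replicate 3 of both tissues, and 33 with limma on log2(FPKM + 1), and 1 fall held in every omission. Irgm1, a GTPase that guards against intracellular pathogens, was at 13.4, 21.03 and 23.4 CPM in marrow and 50.6, 53.1 and 71.1 CPM in blood (log2 fold change 1.59 ± 0.29, adjusted p = 0.0056). Irf1, the transcription factor induced by interferon gamma, was at 213, 223 and 246 CPM in marrow and 417, 403 and 610.0 CPM in blood (log2 fold change 1.07 ± 0.20, adjusted p = 0.0058). Ifi47 and Gbp5, which encode interferon-inducible GTPases, were at 6.65, 8.72 and 9.0003 CPM in marrow and 17.4, 20.1 and 19.95 CPM in blood (log2 fold change 1.24 ± 0.17, adjusted p = 0.0015) and at 1.45, 2.69 and 2.91 CPM in marrow and 6.56, 8.38 and 6.86 CPM in blood (log2 fold change 1.63 ± 0.30, adjusted p = 0.0060). Not all targets passed: Isg15 was at 19.95, 31.9 and 35.3 CPM in marrow and 52.7, 47.7 and 54.8 CPM in blood (adjusted p = 0.066) and Ifit3 at 23.2, 48.9 and 42.7 CPM in marrow and 55.3, 82.98 and 97.98 CPM in blood (adjusted p = 0.082), although their groups do not overlap. Slfn5 was at 39.4, 54.8 and 49.7 CPM in marrow and 129, 177 and 194 CPM in blood (log2 fold change 1.80 ± 0.31, adjusted p = 0.0045), a call lost without replicate 3 of both tissues (adjusted p = 0.056). Gbp7 rose by 1.02, a call lost in 6 alternatives. Against this trend Ifitm6, a myeloid member of the interferon-induced transmembrane family, was at 662, 745 and 911 CPM in marrow and 67.4, 61.2 and 66.9 CPM in blood (log2 fold change -3.57 ± 0.25, adjusted p = 4.8e-05). None of 23 MHC class I and immunoproteasome genes passed in the edgeR fit of 9 libraries (median 0.22), where 3 had an unadjusted p under 0.05. Higher members were 7 with limma on log2(FPKM + 1), 4 with upper-quartile scaling, 2 with the 6 libraries only, 1 with DESeq2, 1 without lung replicate 3 and 0 with limma-voom. In each of the fits with the replicate block and without bone marrow replicate 1, 1 member was lower.

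Among pattern receptors and their adaptors, 11 of 42 were higher and 3 lower (median 0.16). The count higher was 6, 4 and 6 without blood replicate 1, 2 and 3, and 6, 4 and 5 without bone marrow replicate 1, 2 and 3. The count lower was 5 and 7 without lung replicate 1 and 3. Mefv, which encodes pyrin, an inflammasome sensor, was at 19.7, 20.1 and 25.5 CPM in marrow and 115, 141 and 183 CPM in blood (log2 fold change 2.75 ± 0.31, adjusted p = 4.3e-04). Nod1, a sensor of peptidoglycan fragments, was at 48.8, 57.7 and 60.3 CPM in marrow and 135, 140.1 and 173 CPM in blood (log2 fold change 1.43 ± 0.23, adjusted p = 0.0031), and Aim2, a sensor of cytosolic DNA, at 27.8, 28.9 and 28.2 CPM in marrow and 72.6, 73.8 and 87.4 CPM in blood (log2 fold change 1.46 ± 0.16, adjusted p = 4.0e-04). Pycard, the adaptor that joins pyrin and Aim2 to caspase 1, was at 16.8, 16.01 and 17.6 CPM in marrow and 5.84, 6.95 and 3.22 CPM in blood (log2 fold change -1.65 ± 0.36, adjusted p = 0.012). Clec4a2, an inhibitory C-type lectin, was at 164, 173 and 228 CPM in marrow and 37.2, 31.98 and 40.9 CPM in blood (log2 fold change -2.36 ± 0.22, adjusted p = 1.6e-04). The call of Pycard was lost without replicate 3 of both tissues (adjusted p = 0.088) and with limma on log2(FPKM + 0.1).

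Of 49 Fc, TREM, CD300, SLAM and Siglec receptors, 7 were higher and 3 lower (median 0.05). The count higher was 4 without blood replicate 1 or bone marrow replicate 3, 3 without bone marrow replicate 2 and 11 without lung replicate 3. No fall held in every omission. Siglecf, a sialic acid-binding inhibitory receptor best known from eosinophils, was at 11.4, 10.7 and 11.8 CPM in marrow and 45.5, 41.6 and 56.6 CPM in blood (log2 fold change 2.09 ± 0.18, adjusted p = 1.0e-04). It is also 1 of the 15 tested eosinophil and basophil markers, of which 2 were higher and 3 lower. Their summed level was 1536 to 2240.4 CPM in marrow and 888 to 1622 CPM in blood. The sum includes Hdc, which is also in the list of neutrophil markers, so it is not a gauge of eosinophils or basophils alone. Among 41 apoptosis and survival genes, 5 were higher and 4 lower (median 0.00), or 12.2% and 9.76%, against 8.34% and 13.1% of all genes. Pmaip1, the p53 target NOXA, was at 124, 83.8 and 87.6 CPM in marrow and 463, 219.9 and 209.9 CPM in blood (log2 fold change 1.59 ± 0.33, adjusted p = 0.0096), and Bax at 13.2, 14.6 and 14.4 CPM in marrow and 26.7, 22.9 and 20.9 CPM in blood (log2 fold change 0.74 ± 0.14, adjusted p = 0.0056). Bcl2a1a, Bcl2a1b and Bcl2a1d, copies of the survival gene A1, rose by 1.71 to 1.85, but they are near-identical and share reads, and Bcl2a1d was lost without bone marrow replicate 1 or 2. No fall in this list held without blood replicate 1 or without blood replicate 2, and 2 held without blood replicate 3 or bone marrow replicate 2 or 3.

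The nuclear envelope and chromatin list had 10 lower and 2 higher of 46 (median -0.22). Syne1, the giant nesprin that ties the nucleus to actin, was at 1390.4, 1707 and 1198 CPM in marrow and 194, 244 and 249 CPM in blood (log2 fold change -2.64 ± 0.24, adjusted p = 1.6e-04). Syne2, its relative, was at 72.02, 70.7 and 63.2 CPM in marrow and 17.96, 22.04 and 18.6 CPM in blood (log2 fold change -1.81 ± 0.16, adjusted p = 1.4e-04). H3f3b, 1 of the 2 genes for histone H3.3, was at 3504, 4019.8 and 4543 CPM in marrow and 982, 825 and 746 CPM in blood (log2 fold change -2.24 ± 0.26, adjusted p = 5.0e-04). Hmgn2, a nucleosome-binding protein, was at 439, 544 and 591 CPM in marrow and 169.9, 149 and 186 CPM in blood (log2 fold change -1.64 ± 0.18, adjusted p = 4.3e-04). These 4 were called in every alternative run, whereas the lower count was 5 without any 1 blood library or bone marrow replicate 2, and 6 when bone marrow replicate 3 was left out.

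Of 45 division and replication genes, 19 were lower and 1 higher (median -1.45). The count lower was 7, 5 and 7 without blood replicate 1, 2 and 3, 8 without bone marrow replicate 1 or 2, 8 without replicate 3 of both tissues, and 6 with limma-voom. Top2a, the topoisomerase of dividing cells, was at 26.9, 13.03 and 5.19 CPM in marrow and 1.22, 1.30 and 0.566 CPM in blood (log2 fold change -3.86 ± 0.74, adjusted p = 0.0069), lowest in the third marrow library, and its call was lost with limma-voom (adjusted p = 0.072). Mki67 was at 57.9, 43.5 and 10.8 CPM in marrow and 2.53, 2.94 and 0.566 CPM in blood in the table, but the RSEM counts of the same blood libraries came to 70.3, 71.8 and 82.9 CPM, so its level in blood depends on the count used and its difference from marrow was not tested with RSEM counts. The member that rose was Kif23, a kinesin of the dividing cell's midbody, at 58.5, 62.1 and 72.2 CPM in marrow and 233, 209 and 293 CPM in blood (log2 fold change 1.93 ± 0.31, adjusted p = 0.0030). Its RSEM level in blood was 258 CPM on average, against 275 CPM unscaled in the table. It passed in every alternative run. Over all genes, 94.1% of the 13114 that matched by symbol had a blood level within 2 times in both counts. Of 1718 matched genes called lower, 55 had an RSEM level in blood at or above the marrow level of the table, and of 1090 called higher, 8 had one at or below it. These counts set 2 quantifications side by side and test neither falls nor rises.

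Of 51 genes of the endoplasmic reticulum, 4 were higher and 9 lower (median -0.07). Of 39 ribosome biogenesis genes, 2 were higher and 4 lower (median 0.18), and of 35 genes of the citric acid cycle and mitochondrial import none was higher and 5 lower (median -0.16). In the order given, 7.84%, 5.13% and 0% of these lists were higher and 17.6%, 10.3% and 14.3% lower. Over all genes the shares were 8.34% and 13.1%. Leaving out 1 of the 9 libraries gave 1 to 4 higher and 3 to 13 lower endoplasmic reticulum genes, and 1 to 8 lower genes of the citric acid cycle list. The lower endoplasmic reticulum genes were fewest without blood replicate 2, those of the citric acid cycle list without blood replicate 2 or 3, and both were most numerous without lung replicate 3. The medians of the endoplasmic reticulum, citric acid cycle, cytokine, nuclear, transcription factor and lysosomal lists turned positive with limma on log2(FPKM + 1). Polr1a, the large subunit of RNA polymerase I, was at 223, 243 and 273 CPM in marrow and 89.6, 77.2 and 99.2 CPM in blood (log2 fold change -1.47 ± 0.21, adjusted p = 0.0014), while Pes1, a nucleolar factor, rose by 1.06. Dlst, a subunit of the 2-oxoglutarate dehydrogenase complex, was at 242, 218 and 289 CPM in marrow and 86.5, 82.2 and 89.1 CPM in blood (log2 fold change -1.54 ± 0.19, adjusted p = 6.7e-04).

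Transcripts listed as markers of other cells were present in every library and differed between replicates as well as tissues. The sum of globin genes was 15512, 16879 and 1998 CPM in marrow and 16529.5, 11172 and 959 CPM in blood, so replicate 3 was low in both tissues; the globin copies share reads and are given only as a sum. Of 13 erythroid markers, 7 were lower and none higher (median -2.84). The count of lower markers was 2, 3 and 3 without blood replicate 1, 2 and 3, 2 without bone marrow replicate 1 or 2, and 1 with limma-voom. Only Tfrc, the transferrin receptor, was called in every alternative. It was at 79.4, 52.1 and 43.6 CPM in marrow and 23.1, 13.2 and 7.75 CPM in blood (log2 fold change -1.99 ± 0.38, adjusted p = 0.0062). Unlike Slc4a1 above, its level in bone marrow replicate 3 was not far below the other marrow libraries.

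B-cell markers summed to 168, 101 and 51.2 CPM in marrow and 550.2, 543 and 97.3 CPM in blood, and 3 of 15 were higher (median 1.55). None of the 3 passed without bone marrow replicate 2 or with limma-voom. Monocyte and dendritic cell markers summed to 2274, 1964 and 2636 CPM in marrow and 3901, 3642 and 2495 CPM in blood. That sum includes Ly6c2, which marrow neutrophils also express, so it is not a gauge of monocytes and dendritic cells alone. Of the 23 markers tested, 13 were higher and 1 lower (median 2.05). Cx3cr1, the fractalkine receptor of patrolling monocytes, was at 1.93, 0.843 and 0.307 CPM in marrow and 16.3, 19.2 and 4.37 CPM in blood (log2 fold change 3.69 ± 0.77, adjusted p = 0.0098), and Adgre4, a monocyte adhesion receptor, at 0.644, 0.118 and 0.358 CPM in marrow and 18.5, 18.2 and 4.37 CPM in blood (log2 fold change 5.20 ± 0.82, adjusted p = 0.0027). The MHC class II gene H2-Aa was at 18.2, 8.19 and 24.1 CPM in marrow and 155, 201 and 26.4 CPM in blood (log2 fold change 2.92 ± 0.75, adjusted p = 0.025). In these 3 genes blood replicate 3 was lowest. Itgax, a rising marker of the same list given above with the adhesion genes, was instead highest in blood replicate 3. It was at 44.3, 49.7 and 60.6 CPM in marrow and 211, 261 and 349 CPM in blood, and its call held in every alternative. Limma-voom called neither Cx3cr1 nor Adgre4 (adjusted p 0.0713 and 0.0714), and H2-Aa was lost in 5 of the 6 omissions of a blood or marrow library. Ly6c2, a marker of classical monocytes that marrow neutrophils also express, went the other way, at 544, 689 and 861 CPM in marrow and 47.4, 60.3 and 49.2 CPM in blood (log2 fold change -3.74 ± 0.25, adjusted p = 4.2e-05). The count higher was 8 without blood replicate 1, blood replicate 2 or bone marrow replicate 1, and 6 with limma-voom or when bone marrow replicate 2 or 3 was left out.

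Platelet markers summed to 153 to 236 CPM in marrow and 124 to 197 CPM in blood, with 7 of 17 higher and 2 lower (median 2.01). Tubb1, the platelet tubulin, was at 0.453, 0.451 and 0.690 CPM in marrow and 3.16, 13.8 and 8.15 CPM in blood (log2 fold change 3.98 ± 0.56, adjusted p = 0.0014), highest in blood replicate 2. The count higher was 3, 3 and 3 without blood replicate 2, blood replicate 3 and bone marrow replicate 3, 4 without bone marrow replicate 1 and 2 without the other marrow library. Progenitor markers summed to 32.5 to 78.6 CPM in marrow and 9.04 to 26.9 CPM in blood, with 1 of 14 higher and 3 lower. T and NK cell markers summed to 55.3 to 189 CPM and 38.2 to 228 CPM, with 1 of 21 lower. Stromal markers summed to 155 to 374 CPM and 90.5 to 124 CPM, with 3 of 23 lower. Among the lists of other cells, 1 monocyte or dendritic cell marker was at or under 3 counts in every library. The part of these other cells in the differences above was not tested. In bulk libraries fewer cells of a type and less RNA per cell cannot be told apart.

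**Figure D4:**
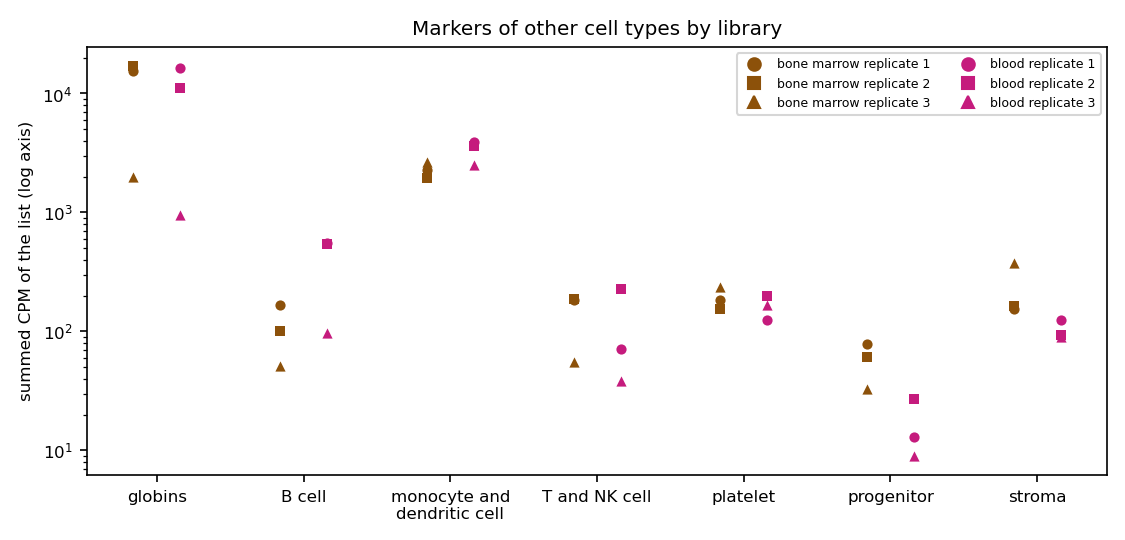
Summed CPM, on a log axis, of marker lists of other cell types and of the globin genes in each library; brown is bone marrow, magenta is blood, and triangles are replicate 3. Triangles are lowest for globins, B-cell, T and NK cell and progenitor transcripts in both tissues.

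Some genes were at or near 0 counts in 1 tissue. Apart from Fcnb, 4 genes had at most 3 counts in every blood library and at least 1 CPM in every marrow library: Prg2, Hcrtr1, Tmem45a2 and Prdm8. Prg2, the eosinophil major basic protein, was at 50.3, 3.90 and 1.33 CPM in marrow and 0.0436, 0 and 0 CPM in blood, so most of its signal was in bone marrow replicate 1. Prdm8, a histone methyltransferase family member, was at 1.53, 1.16 and 1.84 CPM in marrow and 0, 0.0348 and 0 CPM in blood. The reverse held for 2 genes. Muc4, a membrane mucin, was at 0, 0.0392 and 0 CPM in marrow and 2.18, 2.62 and 1.97 CPM in blood, and the predicted gene Gm9573 at 0, 0 and 0 CPM in marrow and 1.59, 1.15 and 2.04 CPM in blood. No fold change is given for these, since the silent tissue is at or under the floor of 3 counts in each library, which is 0.0528 to 0.0714 unscaled CPM.

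Changes in transcript usage were tested on the shares of each gene's transcripts. Of 3116 genes with at least 2 kept transcripts, 128 passed edgeR's gene test (4.11%), and limma's diffSplice called 82, with 72 in common. In 45 of the 72 the gene's total did not pass. The largest shift was in Capg: transcript variant 2 held 89.2%, 88.2% and 88.9% of its counts in marrow and 18.8%, 21.2% and 22.2% in blood, while variant 1 went from 9.17%, 7.997% and 7.20% to 70.7%, 64.3% and 63.6% (adjusted p = 1.3e-06 by edgeR and 6.6e-07 by limma). Fosb, a partner of Jun, had a total that did not pass, and its RefSeq entry without a variant number went from 45.2%, 45.9% and 45.4% to 91.8%, 89.0% and 88.8% (adjusted p = 0.0014 and 0.0025). Both shifts separate the tissues in every library, which the rule that named these genes required.

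Slc35c1, the GDP-fucose transporter needed to make selectin ligands, shifted its counts between 2 RefSeq entries with different annotated starts. Its variant 1 held 45.0%, 40.2% and 49.5% of counts in marrow and 78.3%, 80.9% and 76.9% in blood (adjusted p = 0.0023 and 0.0014), while the gene's total did not pass (log2 fold change -0.25 ± 0.15, adjusted p = 0.29). The entries also differ in length (3138 bases for variant 1 and 2650 for variant 2), and the use of either start was not measured. Both upstream sequences are shown as the annotated start differs. The first precedes variant 2, the marrow-weighted form, and the second precedes variant 1.
Slc35c1 variant 2, chr2:92460519-92460768, - strand: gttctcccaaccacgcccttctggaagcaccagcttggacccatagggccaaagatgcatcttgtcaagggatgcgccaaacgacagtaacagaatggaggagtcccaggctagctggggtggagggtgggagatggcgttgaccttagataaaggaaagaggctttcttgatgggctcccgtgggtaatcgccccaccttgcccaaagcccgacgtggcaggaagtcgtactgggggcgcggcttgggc
Slc35c1 variant 1, chr2:92459795-92460044, - strand: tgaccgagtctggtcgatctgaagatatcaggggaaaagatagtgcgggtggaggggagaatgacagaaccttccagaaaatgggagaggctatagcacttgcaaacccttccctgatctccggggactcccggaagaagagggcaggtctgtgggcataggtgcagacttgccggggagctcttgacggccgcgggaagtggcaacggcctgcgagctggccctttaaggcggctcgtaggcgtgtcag
Gcnt2, which makes branched I-antigen glycans, raised its variant 3. It held 69.9%, 62.7% and 68.7% in marrow and 91.7%, 92.9% and 92.4% in blood (adjusted p = 8.6e-06 and 3.8e-05). Its total was higher in blood, at 337, 326 and 386 CPM in marrow and 943, 825 and 1181 CPM in blood (log2 fold change 1.49 ± 0.31, adjusted p = 0.0099), a call lost without blood replicate 3 and without replicate 3 of both tissues.

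Among regulators, Runx1, a transcription factor of blood cells, had a total that did not pass, and its variant 2 went from 37.6%, 35.1% and 34.7% to 16.5%, 11.6% and 9.33% (adjusted p = 9.6e-04 and 7.1e-04). Srsf3, a splicing factor that controls its own transcript, had its coding variant 1 at 31.1%, 27.7% and 44.6% in marrow and 3.47%, 7.13% and 4.42% in blood, the rest being variant 2, a non-coding RefSeq entry (adjusted p = 0.0042 and 0.0090). Trem1, an amplifier of inflammatory signals, had its variant 2 at 17.4%, 19.9% and 18.3% in marrow and 3.93%, 3.08% and 3.74% in blood (adjusted p = 0.0010 and 0.0025). Sh3bp2, an adaptor of immune receptors, raised its variant 3 from 38.0%, 15.8% and 29.5% to 61.1%, 66.0% and 79.8% (adjusted p = 0.0095 and 0.0087). Clcn4, a chloride and proton exchanger, had variant 1 listed at 0 in all 3 marrow libraries and at 35.01%, 31.6% and 30.4% in blood (adjusted p = 4.2e-07 and 0.014). Gcnt2, Runx1 and Trem1 lie outside the 10 genes of the naming rule and were chosen after their values were seen. Of those 10, Syne1, Nek7, Grk6 and Tnfaip8 passed with edgeR only (limma adjusted p 0.40, 0.27, 0.15 and 0.13), and replicates of 1 tissue differed widely in each.

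**Figure D5:**
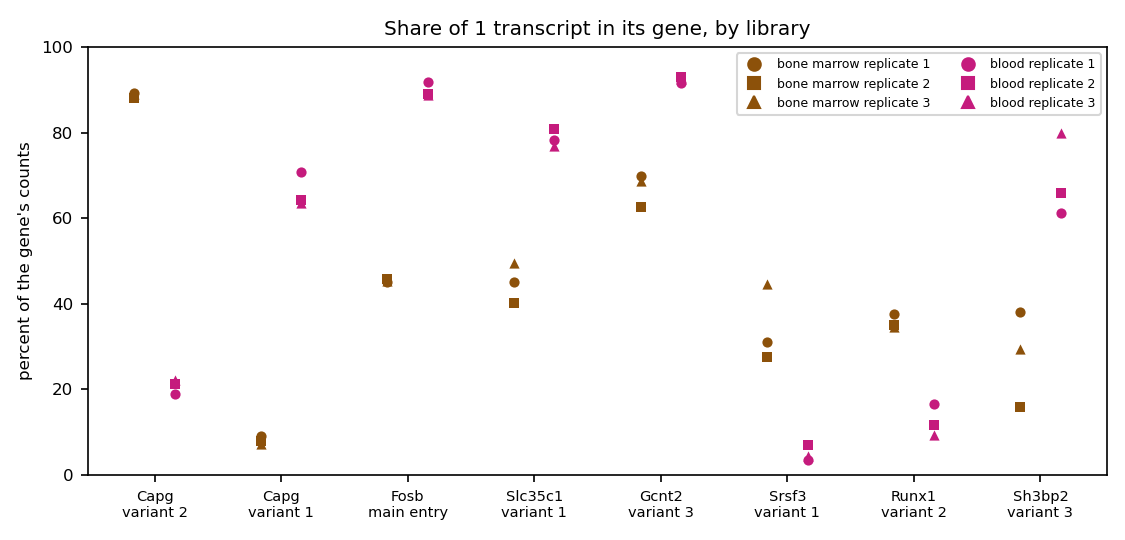
Percent of the counts on a gene's kept transcripts that 1 transcript held in each library. Brown is bone marrow, magenta is blood, and symbols mark replicates. Capg variant 2 lies near 89% in marrow and near 20% in blood, and in every transcript shown the 2 tissues do not overlap. A lack of overlap was part of the rule that named these genes, other than Gcnt2 and Runx1.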

How the data were processed

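Polyadenylated RNA of sorted neutrophils was sequenced in 9 libraries, 3 each from bone marrow, blood and lung. The authors deposited a table of read counts and FPKM per transcript, per the file headers, and RSEM expected counts and TPM for single libraries, per the file headers. The submitters' processing notes name Bowtie2, STAR, StringTie 2.1.3b, RSEM, DESeq2 and mm10, and name a stranded and an unstranded kit, so reads of overlapping and antisense genes may not be told apart. Counts were summed by gene. Genes were tested in edgeR 4.0.16 (filterByExpr, trimmed mean of M-values, robust quasi-likelihood test, 9 libraries in 1 fit), with limma 3.58.1 and DESeq2 1.42.0 as alternatives, in R 4.3.3. P-values were adjusted by Benjamini-Hochberg over all genes tested, with a threshold of 0.05, and measure the spread between these libraries. Transcript usage was tested with edgeR's diffSpliceDGE on transcripts with at least 10 counts in 3 libraries. On data simulated with the same dispersion for every transcript, 15.3% of this gene test's calls were false, against a nominal 5%. That dispersion was fixed and not estimated from these libraries, and a transcript in each of 200 genes was changed by a fixed factor. The value therefore does not give the false share of the 128 calls made here. Limma's value stands beside it as a second test, which was not run on the simulated data. The RSEM expected counts of the blood libraries were used as CPM to check gene levels. The table held about 2 times the RSEM counts, for a reason not given in the sources used here.

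Named genes are the 15 largest rises and 15 largest falls with at least 20 CPM and no overlap, the 15 with the most counts in each tissue, and up to 4 passing members a list with at least 5 CPM. All other genes named were chosen after their values were seen. The members and lists were chosen with earlier results of these data known. Alternatives changed the scaling, filter, tool, unit, block and libraries. Some genes counted in their lists are not reported here by name.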

Additional observations from a re-analysis of the deposited data

Results flagged for a closer look

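Some signal lies in the RSEM files of the blood libraries for genes that no comparison above uses, above the limit of 3 counts that a count of 0 allows. Immunoglobulin mu, Ighm, had 12342, 15176 and 7312 expected counts, and Ighd, the delta chain, 2205, 3122 and 483. Igkc, the kappa light chain, had 3051, 3205 and 436. The T-cell receptor constant genes Trac and Trbc2 had at least 30.0 and 48.9 expected counts in every blood library. The mitochondrial gene mt-Co1 had 15262, 30458 and 6588 expected counts. Blood replicate 3 was lowest for Ighm, Ighd, Igkc, Trac and mt-Co1, and no marrow value was used for these genes.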

How the results depend on the processing

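The main counts were 1127 higher and 1765 lower. They became 2251 and 1106 with limma on log2(FPKM + 0.1), 2266 and 1100 on log2(FPKM + 1), 1695 and 1527 with upper-quartile scaling, 953 and 1110 with no filter on low counts, and 381 and 752 without the third library of both tissues, which was chosen after seeing the data. Over the 9 fits that left out 1 library, the counts ran from 592 to 1659 higher and from 699 to 2437 lower. Across the 19 alternatives, 312 higher and 493 lower genes were called the same way in each. With the replicate number as a block the counts were 1632 and 2358. Libraries of the same number correlated at 0.049, 0.149 and 0.382 in their deviations from the tissue means, and blood replicate 2 correlated best with bone marrow replicate 1 (0.405), so the numbers were not taken as pairs. Transcript usage was called in 128 genes, in 82 with limma's diffSplice, in 59 with the replicate block and in 99 to 131 when 1 library was left out; the block also ended the call of Sh3bp2 (adjusted p = 0.061). As shares of summed FPKM, the differences in percentage points were -5.73 for specific granule genes (-4.37 of counts, -4.51 to -4.18 with 1 library left out), -3.51 for gelatinase genes (-2.08, -2.23 to -1.88), -12.9 for S100a8 and S100a9 (-3.84, -4.07 to -3.57) and 0.079 for azurophil genes (-0.09, -0.116 to -0.048). Slc35c1, called under no setting, was at 0.023 and 0.022 with limma on log2(FPKM + 0.1) and log2(FPKM + 1), against -0.25. Cxcl2, which did not pass, ran from -1.83 to 0.078 with 1 library left out, against -0.49. Of 126 named genes that passed, 97 did so in every alternative. Depth limits the genes near the floor of 3 counts a library.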
